A study of Homo sapiens with 3 samples.

Results

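The transcripts of 6 transcription factors that drive the epithelial-mesenchymal transition, SNAI1, SNAI2, ZEB1, ZEB2, TWIST1 and TWIST2, were followed in 3 lines of HT1080, an established human fibrosarcoma cell line. All probe sets that the platform annotation assigns to only 1 of these symbols were taken, which gave 14 of the 54675 probe sets on the array, with 1 each for SNAI1, SNAI2 and TWIST1, 2 for TWIST2, 4 for ZEB1 and 5 for ZEB2. The Zeo line was mock-transfected. The RECK line was stably transfected with the vector pZeoSV2(+) carrying RECK, a membrane-anchored inhibitor of matrix metalloproteinases, and the RECK/4NQ line with the same vector carrying a RECK in which 4 asparagines that bear N-linked glycans had been exchanged for glutamine. The culture medium held 10% fetal calf serum and, for selection, Zeocin at 50 µg/mL. Each line was measured on 1 array, so no difference below has a replicate check, an SD or a p-value, and other differences between the lines cannot be told apart from the transfected gene. Whether each line is 1 clone or a pool of cells is not stated in the labels. The RECK transcript itself checks the labels only weakly. Of its 5 probe sets, 0 were past 2-fold above Zeo in the RECK line and 1 was in the RECK/4NQ line, by floored signals, while 1 was past 2-fold below Zeo in each line. The brightest gave 264 for Zeo, 387 for RECK and 442 for RECK/4NQ. Which of these probe sets lie within the transfected sequence was not analysed here, so each line is called by its label.

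These factors belong to 3 families. SNAI1 (Snail) and SNAI2 (Slug) bind DNA through C2H2 zinc fingers and repress epithelial genes such as CDH1, which encodes E-cadherin. ZEB1 and ZEB2 hold a zinc finger cluster at each end and a homeodomain-like stretch between them, and repress many of the same genes through the corepressors CTBP1 and CTBP2. TWIST1 and TWIST2 are basic helix-loop-helix proteins that pair with E proteins such as TCF3, TCF4 and TCF12. All these proteins recognise E-boxes, short sites of the form CANNTG, and the Snail and ZEB factors favour the form CAGGTG. In cells of mesenchymal origin, such as fibroblasts and sarcoma cells, several of these factors are normally made.

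RefSeq start windows (GRCh38.p14) were given for ZEB1, ZEB2 and TWIST2 among the 6 genes, 7 of them for ZEB1 and 1 for each other gene. The 250 bases before the start are printed for each gene, for ZEB1 those of the most upstream window, to show how far the genes themselves carry the site that the family binds. Every CANNTG is in capitals, a form that reads the same on both strands and includes CAGGTG and its reverse complement CACCTG.
ZEB1, chr10:31318167-31318416, plus strand: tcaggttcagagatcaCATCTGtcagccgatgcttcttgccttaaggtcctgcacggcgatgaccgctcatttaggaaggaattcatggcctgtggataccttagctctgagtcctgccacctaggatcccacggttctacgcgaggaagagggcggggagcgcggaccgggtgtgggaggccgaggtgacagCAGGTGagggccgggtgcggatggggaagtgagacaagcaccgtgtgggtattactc
ZEB2, chr2:144520120-144520369, minus strand: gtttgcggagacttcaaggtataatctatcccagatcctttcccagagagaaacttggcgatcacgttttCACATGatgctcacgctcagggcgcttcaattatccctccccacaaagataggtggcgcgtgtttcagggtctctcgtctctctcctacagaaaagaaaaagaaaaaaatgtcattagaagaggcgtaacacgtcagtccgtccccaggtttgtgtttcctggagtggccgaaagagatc
TWIST2, chr2:238847835-238848084, plus strand: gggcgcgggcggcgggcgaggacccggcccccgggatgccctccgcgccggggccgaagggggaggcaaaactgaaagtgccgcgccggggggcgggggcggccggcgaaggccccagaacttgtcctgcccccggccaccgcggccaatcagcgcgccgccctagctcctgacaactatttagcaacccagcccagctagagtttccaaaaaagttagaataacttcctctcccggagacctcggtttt
The printed ZEB1 window held 2 such sites, a CATCTG and a CAGGTG that begin 234 and 57 bases before the start. The ZEB2 window held 1, a CACATG that begins 180 bases before it, and the TWIST2 window held 0. Of all 9 windows of these genes, 5 (55.6%) held at least 1 CANNTG and 2 (22.2%), both of ZEB1, at least 1 CAGGTG or CACCTG. Of the 35116 RefSeq windows of this length, 61.8% held at least 1 CANNTG and 17.5% at least 1 CAGGTG or CACCTG. A match is a match of letters and no measured binding site.

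Values are MAS5 signals on a linear scale, and 3 signals of a probe set are always listed in the order Zeo, RECK, RECK/4NQ. Before taking ratios, any signal under 12.3, which 40% of the deposited values do not reach, was raised to that floor. A ratio with 1 array under the floor is a bound. A gene or probe set is called higher or lower where this ratio reached 2-fold. A gene was read from its brightest probe set, and levels of different probe sets are not comparable. Of the 14 probe sets, 6 reached the floor on all arrays, 3 on some of them and 5 on none. Over the 14282 genes whose mean level reached the floor, the log2 ratio had a median of -0.19 for RECK against Zeo, -0.12 for RECK/4NQ against Zeo, and -0.06 for RECK against RECK/4NQ, and ratios are as deposited unless given relative to these shifts.

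**Figure D1:**
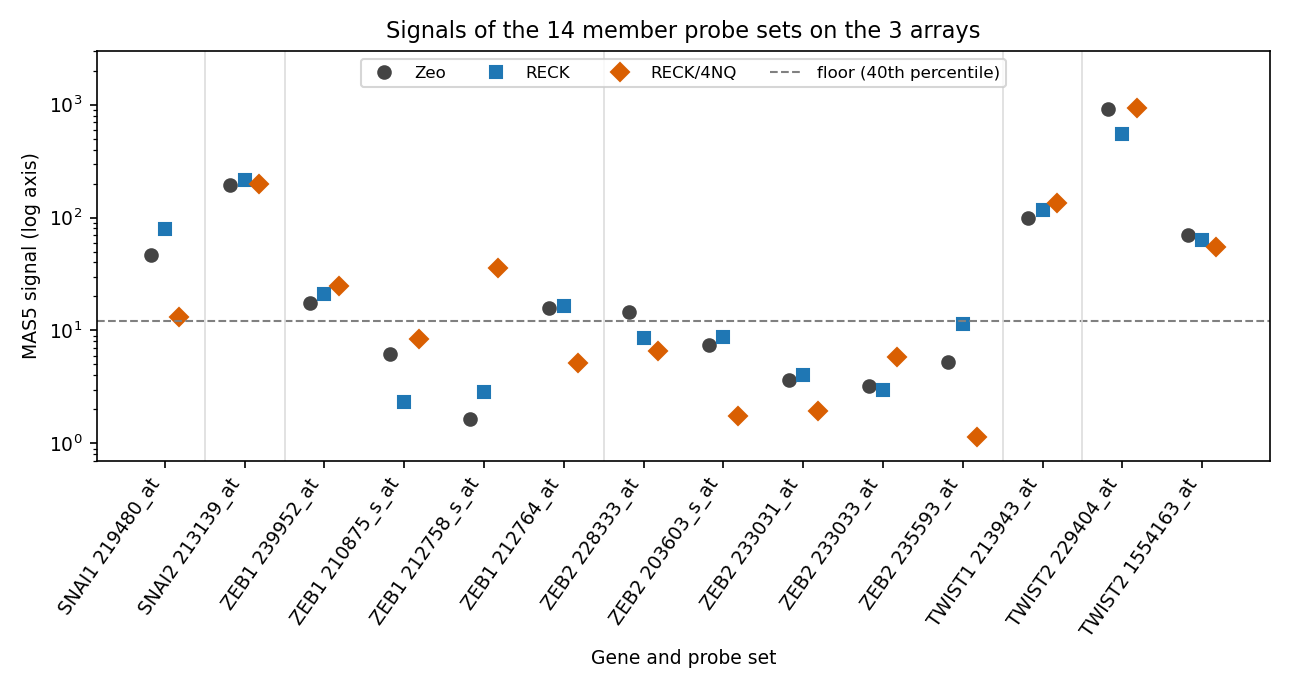
MAS5 signal (log axis) of each of the 14 probe sets of the 6 genes, 1 point per array (circle Zeo, square RECK, diamond RECK/4NQ); the dashed line is the floor of 12.3. SNAI1 is at 78.5 in RECK and at 13.1 in RECK/4NQ, SNAI2 lies between 194 and 216, and 4 of the 5 ZEB2 probe sets lie under the floor on every array; heights of different probe sets are not comparable.

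SNAI1 was the gene of the 6 whose signal differed most among the lines. It was highest in RECK, intermediate in Zeo and close to the floor in RECK/4NQ. SNAI2 and TWIST1 were nearly level across the lines. TWIST2 was lower in RECK than in the other lines by less than 2-fold, and ZEB1 and ZEB2 gave weak signals or none above the floor.

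The single SNAI1 probe set, 219480_at, read 46.3, 78.5 and 13.1. SNAI1 was therefore 1.69-fold above Zeo in RECK (log2 ratio 0.76), which is not past 2-fold, and 3.54-fold below Zeo in RECK/4NQ (-1.82). Between the lines carrying the 2 forms of RECK it differed 5.99-fold (2.58). The value in RECK/4NQ is just above the floor. With the floor at the 60th percentile of all signals, 27.8, the log2 ratio of RECK/4NQ to Zeo was -0.74 and no longer past 2-fold, while that of RECK to RECK/4NQ was 1.5.

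To judge its size, each ratio was read beside those of the 1000 genes nearest in mean level, whose robust spread (1.48 times the median absolute deviation) holds real differences as well as noise. Around SNAI1, genes with mean levels between 32.0 and 41.1, this spread was 0.64 in log2 for both ratios to Zeo and 0.67 for RECK over RECK/4NQ. SNAI1 lay 1.52 spreads above the median of these genes for RECK against Zeo, 2.44 below it for RECK/4NQ against Zeo, and 3.75 above it for RECK against RECK/4NQ. Among these 1000 genes, 108 had as high a ratio of RECK to Zeo, 23 as low a ratio of RECK/4NQ to Zeo and 6 as high a ratio of RECK to RECK/4NQ. A 2-fold lower signal in RECK/4NQ than in Zeo was seen in 12.2% of them. All 3 comparisons use the same arrays, so a single low value in RECK/4NQ enters 2 of them.

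Genes on either side of SNAI1 were near the general shift. For the 20 nearest genes whose mean level reached the floor, 10 on each side, the median log2 ratio was -0.26 for RECK against Zeo, -0.12 for RECK/4NQ against Zeo, and -0.17 for RECK against RECK/4NQ. Of these 20 neighbours, 1 was higher and 1 lower in RECK than in Zeo, and 0 were past 2-fold in RECK/4NQ against Zeo. In RECK against RECK/4NQ, 1 was higher and 0 lower. Over all genes, 4.03% were higher and 6.70% lower in RECK than in Zeo, and 2.81% and 7.13% in RECK/4NQ than in Zeo. For RECK against RECK/4NQ the shares were 5.76% and 4.47%. With 20 genes the counts cannot be set apart from these shares.

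The genes nearest to SNAI1 in the pair of log2 ratios to Zeo, over 3 arrays, were ATP11A-AS1 (distance 0.10), LZTS1 (0.22) and COL4A6 (0.24). The RECK/4NQ signals of ATP11A-AS1 and COL4A6 are under the floor, so their ratios there are bounds and the order of the 3 genes is not settled. ATP11A-AS1 read 42.7, 77.5 and 11.5. The leucine zipper gene LZTS1 read 51.6, 90.0 and 16.9, and the basement membrane collagen gene COL4A6 read 37.6, 58.1 and 9.93. Of the 12406 genes that reached the floor on each array, 35 were at least 1.5-fold above Zeo in RECK and at least 2-fold below it in RECK/4NQ, as SNAI1 was. Besides SNAI1, 2 of the genes from the lists described below met this, the matrix genes TNC, with signals of 436, 870 and 82.1, and COL5A1, at 201, 493 and 92.0. Likeness over 3 arrays is a description of these values.

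SNAI2, the other Snail family member, read 194, 216 and 196 from probe set 213139_at. Its log2 ratios were 0.15 for RECK against Zeo, 0.02 for RECK/4NQ against Zeo, and 0.13 for RECK against RECK/4NQ, all within 1 spread (0.43, 0.39 and 0.44) of the median of genes of like level. The order of the lines therefore cannot be read for SNAI2.

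TWIST1 read 98.7, 117 and 136 from probe set 213943_at. It was 1.18-fold above Zeo in RECK and 1.37-fold above it in RECK/4NQ, with log2 ratios of 0.24 and 0.46. These lay 0.82 and 1.28 spreads above the median of genes of like level.

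The brighter TWIST2 probe set, 229404_at, read 907, 548 and 930. RECK was thus 1.65-fold below Zeo (log2 ratio -0.73) and 1.70-fold below RECK/4NQ (-0.76), at 1.39 and 1.49 spreads under the median of genes of like level. Of the 1000 nearest genes, 87 had as low a ratio of RECK to Zeo. The dimmer probe set, 1554163_at, read 70.1, 62.7 and 54.5, and there RECK/4NQ and not RECK was the lowest line. The mean of both probe sets put TWIST2 at -0.44 for RECK against Zeo and -0.28 for RECK against RECK/4NQ.

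ZEB1 was read by 4 probe sets that did not move together. The brightest, 239952_at, read 17.5, 20.9 and 24.6, a 1.40-fold difference between the lowest and highest line. Probe set 212764_at read 15.9, 16.5 and 5.10, with RECK/4NQ lowest. Probe set 212758_s_at, whose suffix marks probes shared between transcripts, read 1.64, 2.83 and 35.5, which is at least 2.90-fold higher in RECK/4NQ than in either other line. Probe set 210875_s_at was under the floor on every array, at 6.20, 2.31 and 8.47. In RECK/4NQ these probe sets of ZEB1 thus gave the highest value of the lines in some cases and the lowest in another, and no order of the lines holds for all of them.

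ZEB2 was at or above the floor only in Zeo and only by probe set 228333_at, which read 14.5 there, 8.61 in RECK and 6.57 in RECK/4NQ. The other 4 ZEB2 probe sets lay between 1.13 and 11.5 on all arrays. With the floor at the 20th percentile of all signals, 4.09, the log2 ratio of RECK/4NQ to Zeo was -1.15 for ZEB2, and with the reported floor it was -0.25, a bound. No detection calls were used here, so a signal under the floor means only that it could not be told from the weakest 40% of values.

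Counted over the 6 genes, 0 were called higher and 0 lower in RECK than in Zeo, where 4.03% of all 19775 genes were called higher and 6.70% lower. In RECK/4NQ, 0 were higher than in Zeo (2.81% of all genes) and 1 was lower, SNAI1 (7.13%). Between RECK and RECK/4NQ, 1 was higher in RECK, again SNAI1 (5.76%), and 0 were lower (4.47%). As deposited, 37.5% of all genes called between RECK and Zeo were higher in RECK, and 51.6% after each array was centred on its median, so the split of calls depends on the scaling. For RECK/4NQ and Zeo it was 28.3% and 40.1%. With 6 genes these counts cannot be set apart from the shares over all genes. The 6 genes had a median log2 ratio of 0.19 for RECK against Zeo, 0.03 for RECK/4NQ against Zeo, and -0.11 for RECK against RECK/4NQ, beside -0.05, 0.00 and 0.00 over all genes with the same floor. Counted over the 14 probe sets, RECK/4NQ was lower than Zeo in 1, that of SNAI1 (6.48% of all probe sets with 1 symbol), and higher in 1, 212758_s_at of ZEB1 (2.95%). RECK was higher than RECK/4NQ in 1 probe set, that of SNAI1 (5.09%), and lower in 1, again 212758_s_at (4.54%). Against Zeo, RECK was higher in 0 probe sets (3.64%) and lower in 0 (6.32%).

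**Figure D2:**
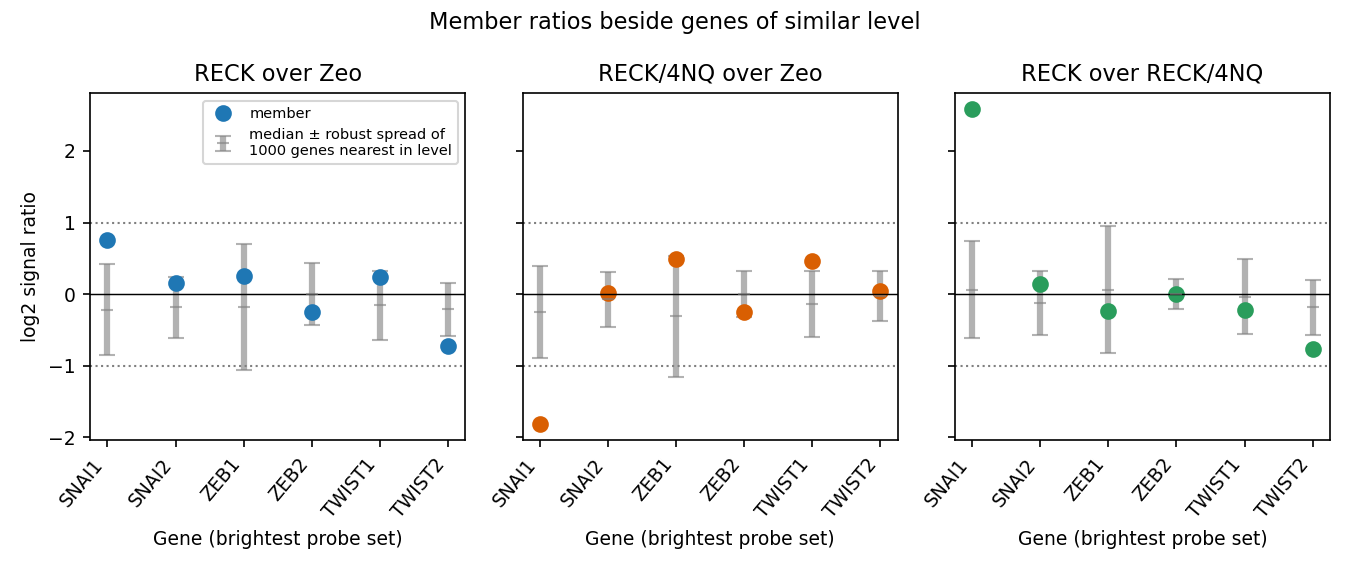
Log2 signal ratio (vertical axis) of each gene's brightest probe set in the 3 comparisons (coloured points), beside the median ± robust spread of the 1000 genes nearest in level (grey bars); dotted lines mark 2-fold. SNAI1 lies at -1.82 for RECK/4NQ over Zeo and at 2.58 for RECK over RECK/4NQ, and no other gene of the 6 passes 2-fold.

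The proteins that work with these factors were taken from lists of other linked factors, partners, corepressors, modifying enzymes, inducing signals and target genes, 163 genes in all with the 6 factors and control lists, of which 153 had a probe set. Over these 153 genes, 9 were higher and 9 lower in RECK than in Zeo, 4 higher and 14 lower in RECK/4NQ than in Zeo, and 12 higher and 5 lower in RECK than in RECK/4NQ. The shares higher and lower over all genes were 4.03% and 6.70%, 2.81% and 7.13%, and 5.76% and 4.47%. No list count was tested against these shares. Other probe sets often did not share these calls. Of the 18, 18 and 17 called genes, 14, 14 and 12 had another probe set, and for 5 in each comparison at least 1 of those gave the same call, while for 1, 2 and 0 genes at least 1 gave the opposite call.

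Among 12 other factors linked to the transition, 2 were higher in RECK and 0 lower, and 2 were higher in RECK/4NQ and 0 lower. Over all genes, 4.03% were higher and 6.70% lower in RECK, and 2.81% and 7.13% in RECK/4NQ. FOXC2, a forkhead factor of mesenchymal cells, read 226, 900 and 227, 3.98-fold higher in RECK. Its second probe set, which was under the floor in Zeo and RECK/4NQ, read 5.15, 59.5 and 4.94 and was also highest in RECK. PRRX1, a homeobox factor of limb and connective tissue mesenchyme, read 10.6, 28.0 and 24.9, at least 2.28-fold and 2.03-fold above Zeo, while its other probe sets were under the floor on all arrays. FOXQ1, another forkhead factor, read 12.8, 18.4 and 29.9, 2.34-fold above Zeo in RECK/4NQ. FOXC2 and SNAI1 thus both had their highest signal in RECK, but only SNAI1 was also below Zeo in RECK/4NQ.

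Of 9 ID genes and helix-loop-helix genes linked to the TWIST factors, 1 was higher in RECK and 0 lower, and none was past 2-fold in RECK/4NQ. Over all genes, 4.03% were higher and 6.70% lower in RECK, and 2.81% and 7.13% in RECK/4NQ. TCF3, TCF4 and TCF12 are in this list and also among the other factors above. HAND1, a helix-loop-helix factor of heart and trophoblast, read 9.07, 36.9 and 23.6, at least 3.01-fold above Zeo in RECK. The ID proteins, which hold E proteins away from TWIST and other partners, were not past 2-fold. ID1 read 6280, 5465 and 4926, ID2 94.1, 129 and 84.5, and ID3 3475, 4773 and 3220.

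Of 15 corepressors and chromatin enzymes that Snail and ZEB factors recruit, 0 were higher and 0 lower in RECK, and 0 were higher and 1 lower in RECK/4NQ. The shares over all genes were 4.03% and 6.70% in RECK, and 2.81% and 7.13% in RECK/4NQ. All 15 reached the floor on every array. CTBP1 read 2652, 2009 and 2823, and CTBP2 read 606, 578 and 440. Another CTBP1 probe set read 15.5, 35.4 and 37.3, past 2-fold above Zeo in both lines, and does not enter the counts. The remaining 2 CTBP1 probe sets were short of 2-fold against Zeo. The lower gene was SUZ12, a subunit of Polycomb repressive complex PRC2, at 79.1, 49.8 and 34.8 (2.28-fold). Another SUZ12 probe set read 15.0, 12.9 and 30.8, past 2-fold in the opposite direction in RECK/4NQ. The third read 15.7, 13.8 and 22.1. The median log2 ratio of this list was -0.33 for RECK over Zeo and 0.01 for RECK/4NQ over Zeo, beside -0.19 and -0.12 over all genes whose mean level reached the floor.

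Among 13 kinases, ubiquitin ligases and phosphatases that set the stability of Snail proteins, 0 were past 2-fold against Zeo in either line by the brightest probe set. Between RECK and RECK/4NQ, 1 was higher in RECK and 1 lower, beside 5.76% and 4.47% of all genes. LATS2, a Hippo pathway kinase, read 140, 98.4 and 221, 2.25-fold lower in RECK than in RECK/4NQ, a call that 0 of its 3 other probe sets shared. MDM2, the ubiquitin ligase of p53, read 68.5, 92.1 and 43.9, 2.09-fold higher in RECK than in RECK/4NQ. Of its 9 other probe sets, 2 shared this call. Against Zeo, 7 of these 9 were short of 2-fold in RECK and 5 in RECK/4NQ. Another of them read 92.0, 29.2 and 14.1, past 2-fold below Zeo in both lines, and does not enter the counts. Of 18 genes for inducing signals, 1 was lower in each line and 0 higher. Over all genes, 6.70% were lower and 4.03% higher in RECK, and 7.13% and 2.81% in RECK/4NQ. NOTCH1, a Notch receptor, read 702, 302 and 298, 2.33-fold and 2.36-fold lower. TGFBR2, the type II receptor for TGF-beta, read 177, 163 and 249 by its brighter probe set. The other read 3.18, 28.1 and 36.6, past 2-fold above the floored Zeo value in both lines, and does not enter the counts.

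The genes that these factors are known to repress come next. CDH1 read 0.946, 7.75 and 15.6 by its brighter probe set, and only the last value is above the floor. Its other probe set stayed between 2.06 and 2.22. EPCAM, an epithelial adhesion molecule, was under the floor on every array, at 0.682, 3.60 and 1.52. The CDH1 transcript was thus under or close to the floor in all lines. Since RNA came from whole cultures, fewer cells making a transcript and less transcript per cell cannot be told apart.

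Of 32 epithelial genes with a probe set, RECK against Zeo gave 1 higher, 5 lower and 26 short of 2-fold, and 7 of the 32 were under the floor on every array. For RECK/4NQ against Zeo the counts were also 1, 5 and 26. Over all genes, 4.03% were higher and 6.70% lower in RECK, and 2.81% and 7.13% in RECK/4NQ. The list's median log2 ratio was 0.00 for RECK over Zeo and -0.02 for RECK/4NQ over Zeo, beside -0.05 and 0.00 over all genes, values held near 0 by genes under the floor. Over the 18 whose mean level reached the floor it was -0.37 and -0.33, beside shifts of -0.19 and -0.12 over all such genes. JUP, which encodes plakoglobin of desmosomes and adherens junctions, read 105, 2.98 and 27.9, at least 8.55-fold below Zeo in RECK and 3.75-fold in RECK/4NQ. The desmosomal gene PKP2 read 39.0, 3.68 and 2.47, at least 3.18-fold lower in both lines, while its other probe set read 1.56, 7.31 and 13.7. The tight junction gene CLDN3 read 36.2, 5.29 and 41.9, at least 2.95-fold lower in RECK than in Zeo.

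GRHL2, a factor known for mutual repression with ZEB1, read 37.1, 20.3 and 9.30, at least 3.03-fold below Zeo in RECK/4NQ. The remaining called genes were named after their values were seen. OVOL1, a zinc finger factor known to oppose ZEB1, read 23.3, 60.6 and 23.1 and was the higher gene in RECK. The epithelial factor ELF3 read 22.0, 36.4 and 60.7 and was the higher gene in RECK/4NQ. TJP1, which encodes a tight junction scaffold, was lower in RECK at 60.3 against 127. GRHL1 was under the floor in RECK and RECK/4NQ and at 29.8 in Zeo. AP1M2, a sorting adaptor of epithelial cells, was 2.25-fold below Zeo in RECK/4NQ, at 74.5 against 167, and read 200 in RECK.

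RefSeq windows were given for 17 of these epithelial genes, and 12 of the 17 (70.6%) held at least 1 CAGGTG or CACCTG in the 250 bases before a start, beside 20.6% of all 27305 genes with a window. Counted by window, 14 of 25 (56.0%) held it, beside 17.5% of all windows. Some of these windows overlap, as for OCLN and MUC1. For the mesenchymal genes described next, 2 of 16 (12.5%) held it. These shares describe letters in a fixed window and were not tested. The epithelial list was drawn from genes that these factors are known to repress, so its share is no independent evidence of binding. The window with the most such sites, that of the polarity gene CRB3, and that of AP1M2 are printed with CAGGTG and CACCTG in capitals. Both were chosen after the values were seen.
CRB3, chr19:6464021-6464270, plus strand: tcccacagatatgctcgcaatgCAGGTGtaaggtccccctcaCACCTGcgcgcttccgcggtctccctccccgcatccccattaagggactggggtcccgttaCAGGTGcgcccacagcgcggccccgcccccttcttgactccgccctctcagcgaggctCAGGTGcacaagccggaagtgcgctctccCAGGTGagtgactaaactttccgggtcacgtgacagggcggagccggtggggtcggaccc
AP1M2, chr19:10587313-10587562, minus strand: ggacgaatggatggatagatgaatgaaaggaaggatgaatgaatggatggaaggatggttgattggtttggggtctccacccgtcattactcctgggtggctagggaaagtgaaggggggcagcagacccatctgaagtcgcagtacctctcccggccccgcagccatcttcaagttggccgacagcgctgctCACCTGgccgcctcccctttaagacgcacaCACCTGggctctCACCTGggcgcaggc
The CRB3 window held 5 such sites and the AP1M2 window 3, the nearest of which begins 15 bases before the start of AP1M2. The CRB3 probe set read 29.6, 18.0 and 35.0 and was not past 2-fold.

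Of 27 mesenchymal genes with a probe set, RECK against Zeo gave 5 higher, 2 lower and 20 short of 2-fold. For RECK/4NQ against Zeo 1 was higher, 5 lower and 21 short of it. Over all genes, 4.03% were higher and 6.70% lower in RECK, and 2.81% and 7.13% in RECK/4NQ. The intermediate filament gene VIM read 10307, 10704 and 10611, and the matrix gene FN1 2444, 2707 and 2639. N-cadherin, CDH2, read 132, 171 and 98.4 by its brighter probe set and 56.7, 50.3 and 45.5 by the other. TAGLN, an actin-binding protein of smooth muscle, read 111, 367 and 10.9, so that it was at least 9.02-fold below Zeo in RECK/4NQ, and the tenascin gene TNC was 5.31-fold below it there. The other TAGLN probe sets read 47.6, 316 and 28.7, and 42.2, 44.5 and 61.7, neither past 2-fold in RECK/4NQ. Another TNC probe set read 18.6, 6.21 and 8.49, and the last was under the floor on every array. CDH11, a cadherin of mesenchymal cells, had another order, with 25.7, 154 and 144, and a further CDH11 probe set read 39.7, 29.1 and 4.09. The gelatinase gene MMP9 read 1947, 203 and 2306 and was thus lowest in RECK.

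**Figure D3:**
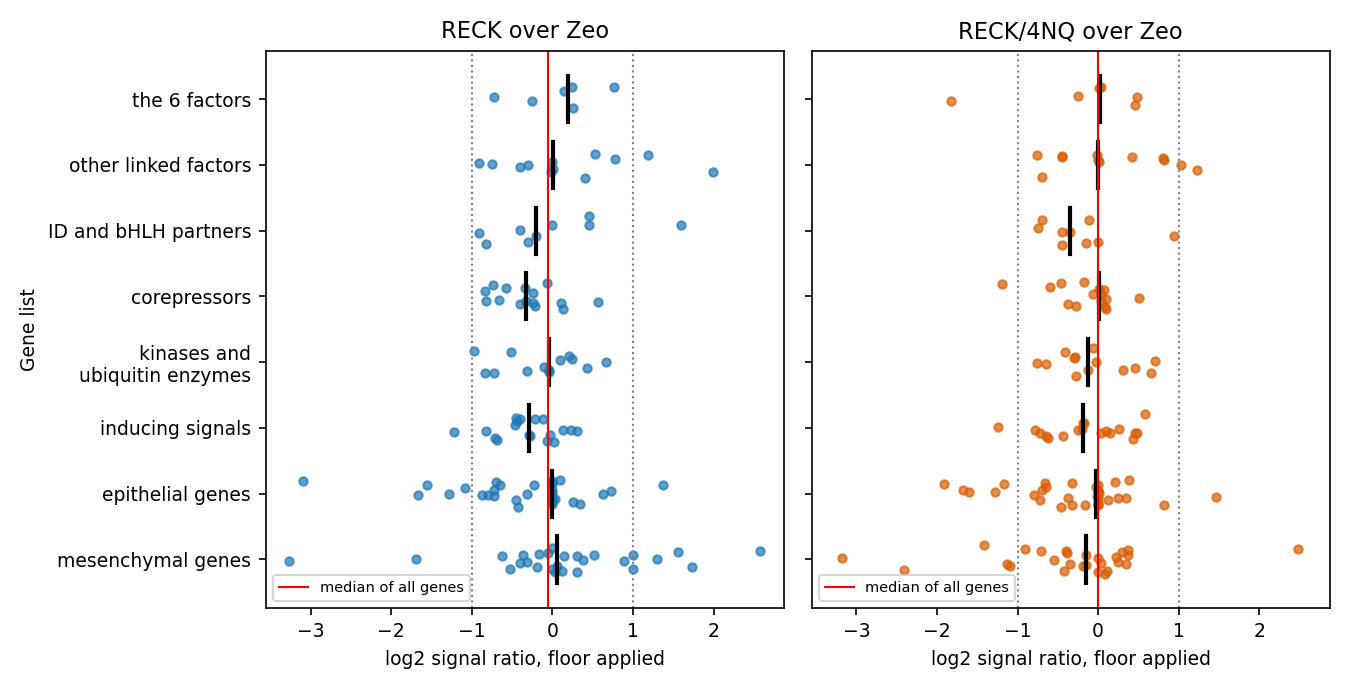
Log2 signal ratio to Zeo (horizontal axis, floor applied) of every gene with a probe set in 8 lists, for RECK (left) and RECK/4NQ (right); points are genes, placed at random heights within a row, black bars are list medians, red lines the median of all genes and dotted lines 2-fold. The 6 factors have a median of 0.19 in RECK and 0.03 in RECK/4NQ, and the single point past 2-fold in their row is SNAI1 at -1.82.

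The lines had mesenchymal markers and the simple keratins KRT8 and KRT18. Of 7 mesenchymal markers, 6 reached the floor on each array, the exception being COL1A2, at 2.31 in RECK/4NQ. Of 9 epithelial markers, KRT8 and KRT18 did, and EPCAM, KRT19, CLDN4, CLDN7 and ESRP1 were under it on every array. The summed signal of the epithelial markers was 11252, 9079 and 9882, most of it from KRT18, at 9895, 7371 and 8807. The leukocyte list had 1 of 5 genes lower in RECK, ITGAM, at 12.1 against 32.6, a bound since 12.1 is under the floor. Its other probe set read 19.7, 19.9 and 2.36 and did not share this call. The melanocyte list had 1 of 5 lower in RECK/4NQ, MITF, at 25.3 against 53.7, and the endothelial list had 0 of 5 past 2-fold. Over all genes, 6.70% were lower than Zeo in RECK and 7.13% in RECK/4NQ. The leukocyte genes CD3E, at 48.7, 26.6 and 34.3, and CD79A, at 121, 86.2 and 96.2, reached the floor on every array. So did MITF and the endothelial gene PECAM1, at 108, 70.3 and 72.4. Reaching the floor therefore does not by itself show that a gene is made in these lines. None of 9 housekeeping genes was past 2-fold in any comparison. The part of these markers in the SNAI1 values was not tested.

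**Figure D4:**
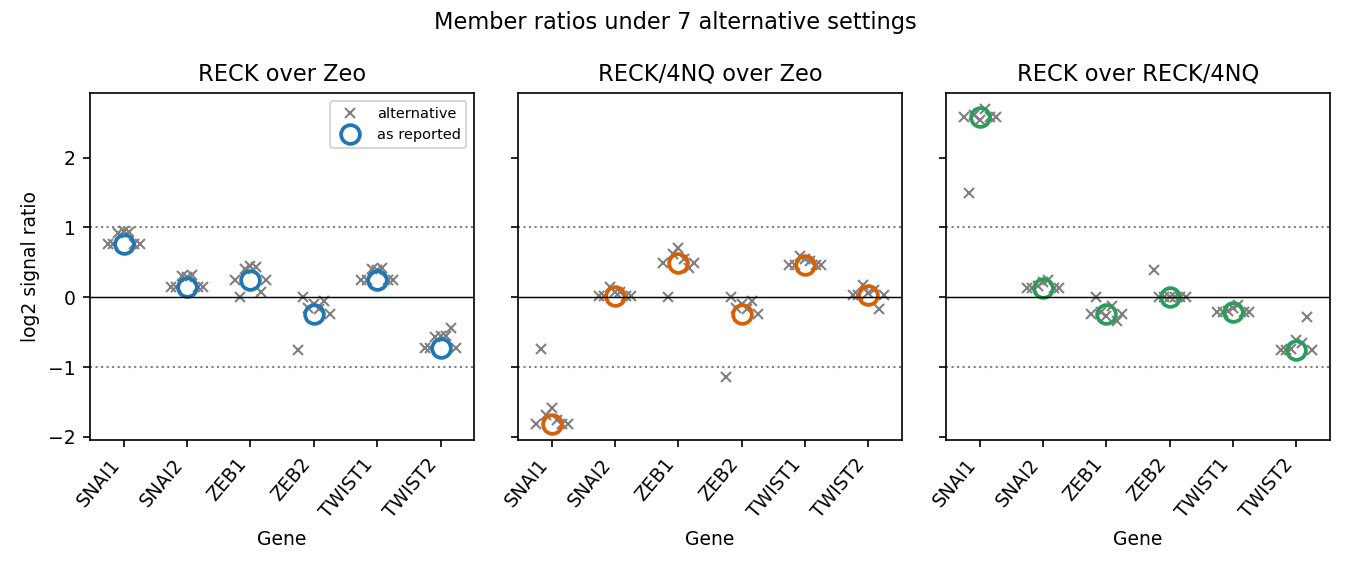
Log2 signal ratio of the 6 genes in the 3 comparisons as reported (open circles) and under 7 alternative settings of floor, scaling and probe sets (crosses); dotted lines mark 2-fold. For SNAI1, RECK/4NQ over Zeo runs from -1.82 to -0.74 and RECK over RECK/4NQ from 1.5 to 2.69, and the TWIST2 ratio of RECK to Zeo lies between -0.73 and -0.44.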

How the data were processed

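Total RNA of 3 HT1080 lines was hybridised to 3 Affymetrix arrays, 1 per line, as biotin-labelled cRNA (8.1 to 15 µg of RNA each, per the labels). The authors deposited 1 MAS5 signal per probe set and array, a linear intensity, per the submitters' processing notes. Neither the version nor the scaling target of MAS5 is given in the sources used here. MAS5 subtracts a mismatch estimate, so weak signals are noisy. Summed signals ran from 11372165 in RECK to 12516990 in Zeo. The number of arrays limits the precision.

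All else was computed here with Python 3.11.15, numpy 2.4.6 and pandas 2.3.3. Of 54675 probe sets, 62 are controls, and 41091 others carry 1 symbol in the platform annotation, 41037 of them matched to RefSeq gene IDs. The brightest probe set by mean log2 signal stood for each of 19775 genes. Calls used a floor at the 40th percentile and 2-fold. Alternatives were other floors (20th and 60th percentile), median centring, quantile normalisation, a common 2% trimmed mean, averaged probe sets, unshared probe sets, and 1.5-fold or 3-fold thresholds. Calls were tested on simulated data with changes placed only in genes more than 3 log2 units above the floor. The mean levels of SNAI1, ZEB1 and ZEB2 are lower, so changes in such genes were not simulated. Named genes were all members, up to 4 called genes per list with the largest ratios, and CDH1, CDH2, VIM, FN1, EPCAM, CTBP1, CTBP2, TGFBR2 and ID1 to ID3; genes nearest SNAI1 were the 3 closest in both log2 ratios to Zeo with levels at or above the 60th percentile. The members and lists were chosen with earlier results of these data known. Of the listed genes, 10 had no probe set of their own and were not analysed here.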

Additional observations from a re-analysis of the deposited data

How the results depend on the processing

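Of 126 alternative values of the members' log2 ratios, 120 kept their side of 2-fold and moved by no more than 1 spread of genes of like level. Many of these values could not move, so the count says little about stability. No member's brightest probe set is of the shared kind, and averaging leaves a gene with 1 probe set as it was. Another floor leaves stronger signals unchanged. A floor at the 60th percentile put SNAI1 at -0.74 for RECK/4NQ against Zeo and 1.5 for RECK against RECK/4NQ, since the floor of 27.8 replaced its signal of 13.1. A floor at the 20th percentile put ZEB2 at -0.76 for RECK against Zeo, -1.15 for RECK/4NQ against Zeo and 0.39 for RECK against RECK/4NQ. Averaged probe sets gave TWIST2 -0.28 for RECK against RECK/4NQ. No result changed to a call in the opposite direction.

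The number of members lower in RECK/4NQ than in Zeo was 2 with a floor at the 20th percentile of signals and 0 at the 60th. Of all 19775 genes, 2685 and 456 were lower at these floors. At 1.5-fold, 1 member was higher (SNAI1) and 1 lower (TWIST2) in RECK than in Zeo, and 1 was lower in RECK than in RECK/4NQ. Of all 19775 genes, 1852 were higher and 3631 lower in RECK than in Zeo at 1.5-fold, and 2625 lower in RECK than in RECK/4NQ. Over all list genes, a floor at the 20th percentile gave 18 lower for RECK against Zeo, 10 higher for RECK/4NQ against Zeo and 14 lower for RECK against RECK/4NQ. The floor at the 60th gave 5 lower for RECK against Zeo, 2 higher and 8 lower for RECK/4NQ against Zeo and 2 lower for RECK against RECK/4NQ. Counts over all genes moved too. Those lower in RECK than in Zeo numbered 2439 and 524 at these floors, beside 1325 at the reported floor. Those higher in RECK/4NQ than in Zeo numbered 1413 and 165, beside 556. Those lower in RECK than in RECK/4NQ numbered 1885 and 381, beside 883. Averaged probe sets gave 2 higher and 8 lower for RECK/4NQ against Zeo and 3 lower for RECK against RECK/4NQ. The same counts over all genes were 325, 791 and 505. Without shared probe sets there were 5 lower for RECK against Zeo and 2 higher and 9 lower for RECK/4NQ against Zeo. Over the 16788 genes then tested, these counts were 1159, 488 and 1206. At 1.5-fold the list counts higher and lower were 17 and 33, 10 and 31, and 25 and 25 in the 3 comparisons. Over all genes they were 1852 and 3631, 1560 and 3510, and 2695 and 2625. At 3-fold the list counts were 4 and 4, 1 and 6, and 6 and 3. Over all genes they were then 234 and 329, 119 and 287, and 329 and 192. Without shared probe sets fewer genes were tested, and the last settings move the threshold itself. The cause of the other changes was not tested.

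Over all genes, the share of higher among called genes was 37.5% for RECK against Zeo as deposited and 51.6% after median centring, 53.7% after quantile normalisation and 52.9% with a common trimmed mean. For RECK/4NQ against Zeo it was 28.3%, 40.1%, 46.0% and 33.9%. Scaling left SNAI1 between -1.82 and -1.59 for RECK/4NQ against Zeo. No paired analysis was possible because each line has 1 array. Weak signals limit ZEB1, ZEB2 and CDH1, whose order among the lines was not readable at this signal over background.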
